A study of Rattus norvegicus with 16 samples.

Results

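The clotting and complement proteins of blood plasma are made largely by hepatocytes, and 35 of their genes were followed here in rat liver. The genes were taken by name: each row of the deposited gene table whose symbol is on a list of liver-made clotting, fibrinolysis and complement factors, which gave 35 of the 17544 genes in the table. The livers came from male SD rats given intraperitoneal injections over 28 days, in 4 groups with 4 sequenced animals each. The groups received saline, or xylazine at 10, 20 or 40 mg/kg. Xylazine is a veterinary sedative that acts on alpha-2 adrenergic receptors, and the study asked about liver injury. The labels name no other agent, allele, age or batch.

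Clotting runs as a chain of serine proteases that circulate as inactive zymogens and activate one another until thrombin cuts fibrinogen to fibrin. The contact system (factor XII, plasma prekallikrein and factor XI) feeds this chain from the intrinsic side, serpins such as antithrombin restrain it, and plasmin later dissolves the clot. Complement is a parallel protease cascade that starts from antibody (C1r, C1s and C2), from microbial sugars (mannose-binding lectins and their proteases) or from slow turnover of C3, and ends in a membrane pore built from C5b to C9. Several of these genes are textbook targets of the liver factors HNF4 and C/EBP.

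The start regions of F11, Klkb1 and C1r are shown because F11 and C1r were the members that passed a test of change with dose, while Klkb1 is the relative and neighbour of F11 that did not. Each line gives the 250 bases before the gene's start on its coding strand, from RefSeq on the build GRCr8, 5' to 3'. The submitters' processing notes name another build, mRatBN7.2, for the expression values. Capitals mark matches to the C/EBP letters TTGCNNAA on either strand. F11 (gene number 290757) lies at chr16:53720252-53720501, plus strand, Klkb1 (25048) at chr16:53690976-53691225, plus strand, and C1r (312705) at chr4:159098763-159099012, plus strand.
F11: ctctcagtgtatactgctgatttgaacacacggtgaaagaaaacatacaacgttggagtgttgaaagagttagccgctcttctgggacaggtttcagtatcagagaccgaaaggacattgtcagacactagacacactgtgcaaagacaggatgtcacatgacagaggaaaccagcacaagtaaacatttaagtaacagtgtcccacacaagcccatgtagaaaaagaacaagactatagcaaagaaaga
Klkb1: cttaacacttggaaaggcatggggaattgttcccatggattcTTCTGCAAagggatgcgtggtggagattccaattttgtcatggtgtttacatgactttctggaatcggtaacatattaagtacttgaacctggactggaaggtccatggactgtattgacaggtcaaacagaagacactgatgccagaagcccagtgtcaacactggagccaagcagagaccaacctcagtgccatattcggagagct
C1r: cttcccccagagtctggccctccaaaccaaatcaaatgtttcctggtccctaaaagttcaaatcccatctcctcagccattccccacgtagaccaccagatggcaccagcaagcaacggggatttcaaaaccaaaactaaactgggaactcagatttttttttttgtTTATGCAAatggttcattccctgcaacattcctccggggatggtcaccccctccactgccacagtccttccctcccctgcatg

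The F11 window held none of the letter patterns given here, whereas those of Klkb1 and C1r each held a C/EBP match, 208 and 83 bases before the start. Sequence was found for 26 of the 35 members. TTGCNNAA stood in 9 of these 26 windows (34.6%), against 9.2% of all 27457 windows of the same length. The STAT pattern TTCNNNGAA stood in 4 (15.4%, against 7.52%) and the HNF4 pattern CAAAGTNCA in 1 (3.85%, against 1.03%). TATAAA stood in 0 of the 26, against 13.1% of all windows. Both strands were searched and patterns could overlap. These counts describe letters in the windows and do not show binding.

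The 16 libraries held 16059922 to 16956867 estimated reads each. All 12 hepatocyte markers on the list were present, and their summed level ran from 163000 to 221000 counts scaled to library size (CPM) over the libraries, with overlapping ranges in the 4 groups. Markers of stellate cells summed to 306 to 346 CPM with saline and 339 to 461 CPM at 40 mg/kg. The genes on the mesothelial list summed to 94.6 to 122 CPM and 111 to 180 CPM. That list includes the keratins Krt8 and Krt19, which are not particular to mesothelial cells, so neither is its sum. In whole liver, fewer cells of a type and less RNA per cell cannot be told apart. The p-values below measure the spread between animals.

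All 35 genes were expressed in every group and all passed the filter on low counts. Per length, on the length-corrected TPM scale, levels in saline liver spanned from 29.7 ± 3.53 (SD, n = 4) for F5, the cofactor that speeds prothrombin activation, to 3470 ± 257 for Vtn, vitronectin. C3, the hub of complement, stood at 2670 ± 231, Serpinc1 (antithrombin) at 2040 ± 239, Plg (plasminogen) at 1690 ± 39.2 and F2 (prothrombin) at 1220 ± 88.3. Each of these highest genes stood above the next by more than the sum of their SDs. At the low end F7 (57.4 ± 7.12) and Masp1 (66.2 ± 9.99) differed by less than the sum of their SDs, as did F11 (103 ± 2.72) and C6 (105 ± 19.0). Between these ends the other members ran from 91.0 for C2 to 935 for Cfb. F12 (377), Proc (386), C8b (386), F10 (415), C1r (423), F9 (473), Serping1 (482), Serpind1 (490), C4bpa (492) and Serpinf2 (497) formed a near-continuous middle in which neighbours were not separated by their SDs.

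**Figure D1:**
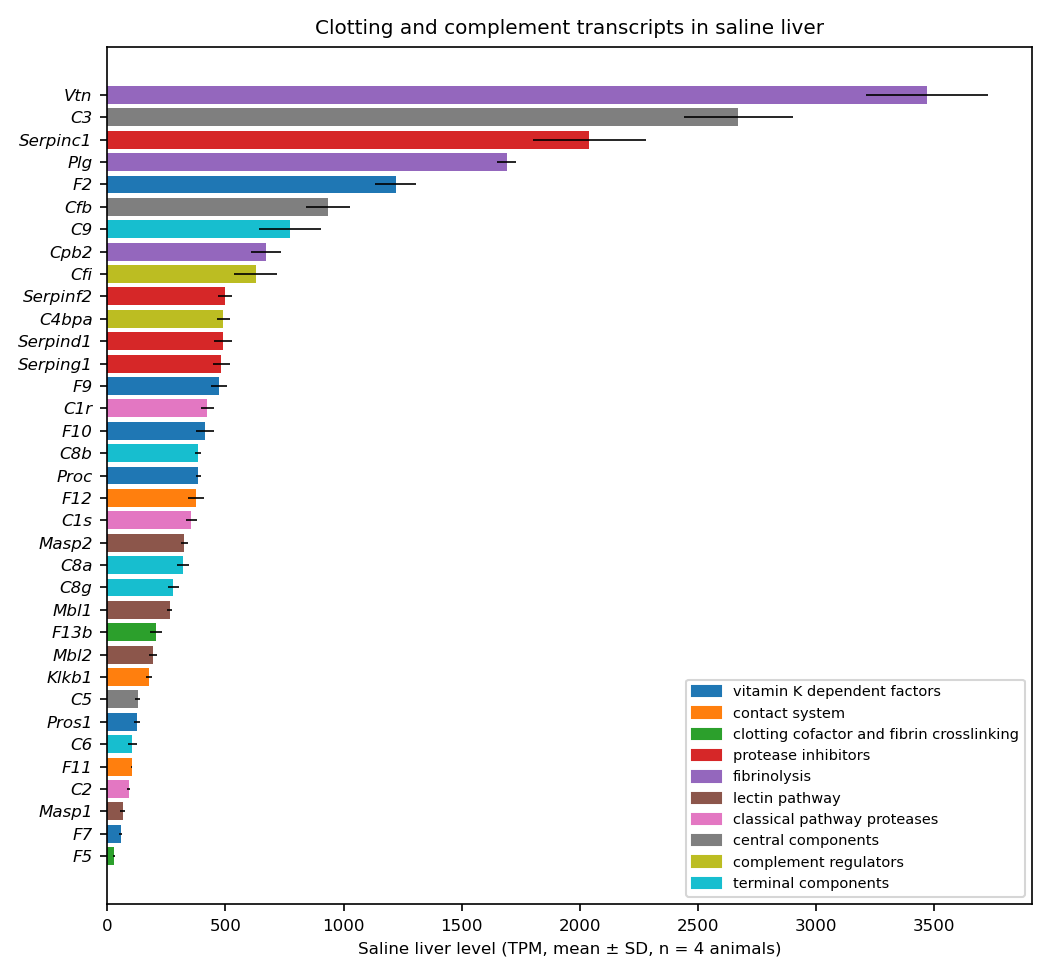
Mean level of each gene in saline liver (TPM, horizontal axis) with SD over 4 animals, coloured by role. Vtn, C3 and Serpinc1 stand highest, above 2000 TPM, and F5 lowest at 29.7 TPM.

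Together the 35 genes took 3.83% to 4.17% of all counts in the saline livers, 3.96% to 4.10% at 10 mg/kg, 3.89% to 4.13% at 20 mg/kg and 3.72% to 3.88% at 40 mg/kg. The SD within groups on the log2 scale had a median of 0.136 over the members, against 0.201 over all 12732 genes tested. It ran from 0.077 for C8a to 0.257 for C6, the latter at percentile 63.1 of all genes. Genes of like level were not compared, so the lower median is not shown to be particular to these genes. Saline replicate 1 stood below the saline mean for 30 of the 35 genes. The 4 animals at 40 mg/kg stood below that mean for 26, 27, 26 and 26 of the 35 genes, with a median log2 deviation of -0.14, -0.14, -0.11 and -0.09. Animals at 10 and 20 mg/kg lay on both sides, with 9 to 27 of the genes below. Saline replicate 1, with a median of -0.09, reached as low as the highest of the 40 mg/kg animals.

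**Figure D2:**
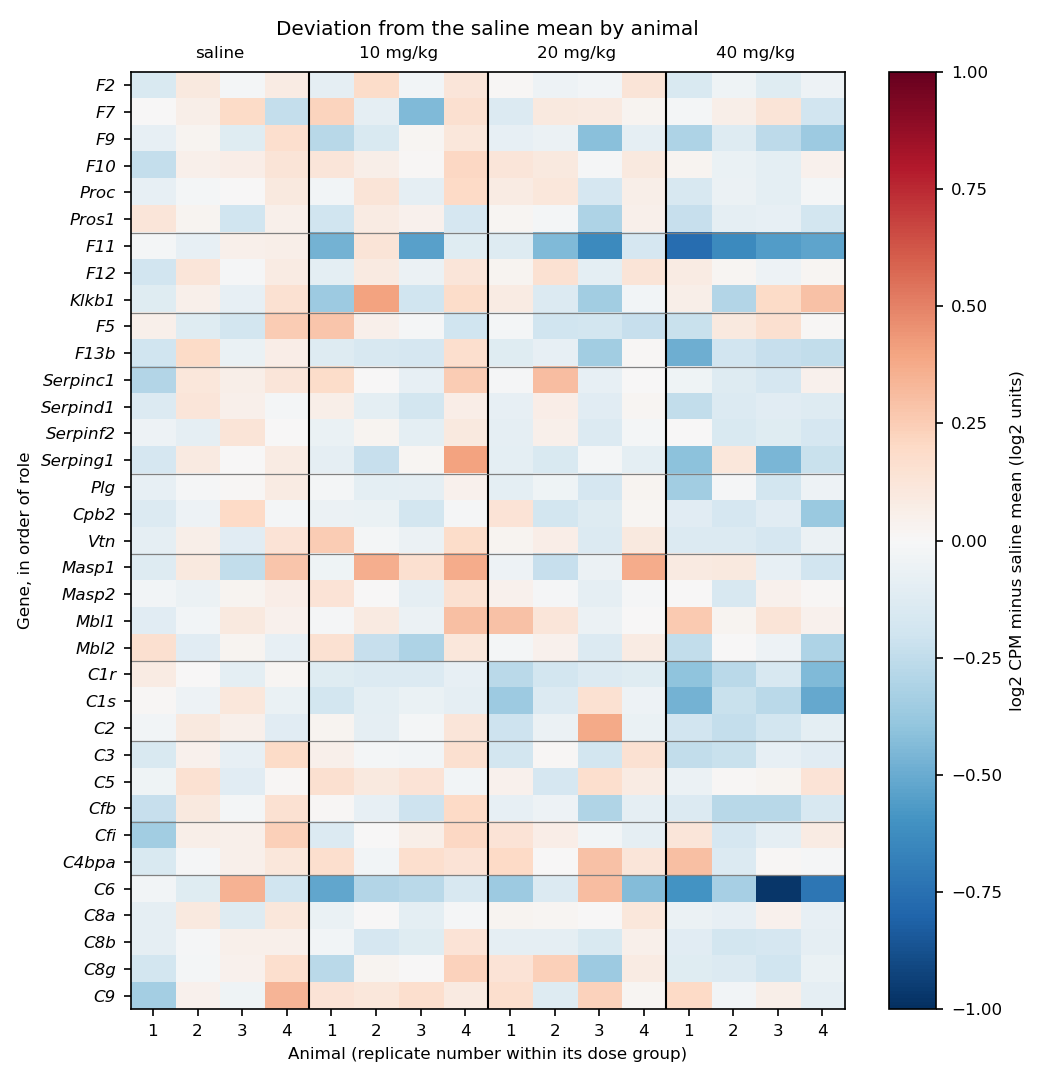
Each cell is 1 gene in 1 animal, as log2 CPM minus the saline mean (blue lower, red higher). The F11 row is blue in all 4 animals at 40 mg/kg and mixed at 10 mg/kg, and the C6 row is the most variable.

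After 28 days at 40 mg/kg, F11 was the 1 member of 35 that fell relative to saline in edgeR's quasi-likelihood test at an adjusted p under 0.05, a threshold that 1.11% of all genes passed (0.636% lower and 0.471% higher). Read against that background, the count of 1 says nothing particular about the family. Of the 35 log2 fold changes, 28 lay below 0, against 50% of all genes, with a median of -0.13 against 0 for all genes. At an unadjusted p under 0.05 there were 6 members, all lower (F9, F11, F13b, C1r, C1s and C6), against a background of 16.2% of genes in either direction and 8.24% lower. The 95% interval of the change lay within 1.5-fold either way for 33 of the 35, F11 and C6 being the others. In 6 members (F9, F11, C1r, C1s, C6 and C8b) every treated animal was below every saline animal, as in 4.85% of all genes, and in 0 members every treated animal was above (4.45% of genes). Without saline replicate 1, 31 of the 35 changes lay below 0, and without saline replicate 4, 25 did. Scaling to total counts or TPM left 22 and 21 of the 35 changes below 0, and medians of -0.07 and -0.04, where the median of all genes moved to 0.06 and 0.07. Over all genes the calls split into 60 higher and 81 lower, but 91 and 50 with total count scaling and 122 and 45 with TPM. Over all genes there were 141 calls, but 27, 72 and 70 without saline replicate 1, 2 or 4 and 63, 78, 57 and 29 without 40 mg/kg replicate 1, 2, 3 or 4.

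**Figure D3:**
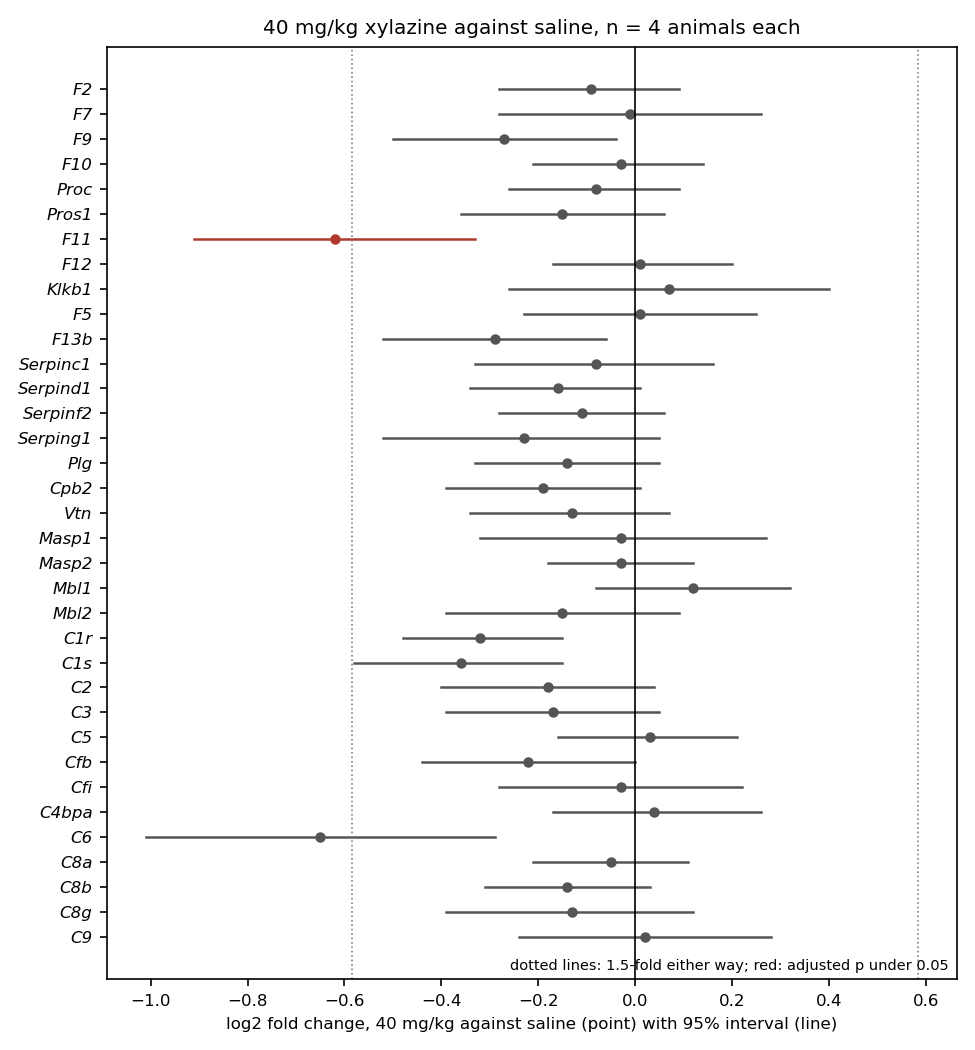
Log2 fold change of each gene at 40 mg/kg against saline (point) with its 95% interval (line), from edgeR's quasi-likelihood fit. F11 (red) is the gene past the threshold; F11 and C6 have intervals reaching beyond 1.5-fold (dotted).

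Across the dose range, F11 and C1r fell with dose: 2 of 35 members passed the trend test, both lower, against 2.91% of all genes (1.63% lower and 1.28% higher). The trend is given as the log2 change from 0 to 40 mg/kg. Of the members, 29 had a slope below 0, against 49.6% of genes, and 8 had an unadjusted p under 0.05, all lower, against 18.8% of genes in either direction and 9.69% lower. Most of the hepatocyte markers given below also had a slope below 0, so this lean is not particular to the clotting and complement genes. With total count scaling or TPM, 23 of the 35 slopes lay below 0, and F11 alone passed. The calls over all genes split into 163 higher and 208 lower, but 276 and 112 with total count scaling and 400 and 84 with TPM. The trend and the dose comparisons share the saline animals, so they are not independent of one another.

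In the contact system, F11 fell while its partners did not pass. F11 encodes factor XI, the zymogen that activates factor IX. Its level was 228, 218, 238 and 240 CPM in the 4 saline livers and 166, 253, 159 and 212 CPM at 10 mg/kg. It was 212, 170, 149 and 205 CPM at 20 mg/kg, with 136, 148, 157 and 160 CPM at 40 mg/kg. Every animal at 20 and 40 mg/kg was below every saline animal, and the 10 mg/kg animals straddled the saline range. At 40 mg/kg the log2 fold change was -0.62 (SE 0.136, a level 0.65 times that of saline, 95% interval -0.91 to -0.33), with an adjusted p of 0.0419 in edgeR's quasi-likelihood test. The trend was -0.60 (SE 0.124, adjusted p = 0.0195) and passed under all 24 alternatives, with an adjusted p of at most 0.0487.

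The call of F11 at 40 mg/kg depends on single animals. It was lost without saline replicate 1, 2, 3 or 4 (edgeR adjusted p = 0.0824, 0.0680, 0.0549 and 0.0889), without 20 mg/kg replicate 2 (0.0507) and without 40 mg/kg replicate 1, 2, 3 or 4 (0.102, 0.0767, 0.0798 and 0.0818), while the log2 fold change stayed between -0.65 and -0.58. With the replicate number as a block the adjusted p was 0.0506. Against 10 mg/kg, whose animals spread widely, the 40 mg/kg change was -0.40 with an adjusted p of 0.204. At 10 and 20 mg/kg against saline it was -0.23 (adjusted p = 0.999) and -0.33 (adjusted p = 0.484).

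Klkb1, which encodes plasma prekallikrein, the closest relative of factor XI, and lies next to F11 on chromosome 16, was measured in the same animals. Its level was 318, 358, 329 and 385 CPM with saline and 270, 458, 301 and 394 CPM at 10 mg/kg. At 20 mg/kg it stood at 366, 315, 272 and 339 CPM, and at 40 mg/kg at 361, 284, 394 and 424 CPM. The groups overlapped, and the log2 fold change at 40 mg/kg was 0.07 (SE 0.156, 95% interval -0.26 to 0.40, edgeR adjusted p = 0.869). F12, the contact factor that starts the intrinsic chain on charged surfaces, was 602 ± 57.0 CPM with saline and 607 ± 21.8 CPM at 40 mg/kg (SD, n = 4), a log2 fold change of 0.01 with a 95% interval of -0.17 to 0.20.

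The ratio of F11 to Klkb1 within an animal is independent of library scaling. Its log2 value was -0.59 ± 0.131 with saline and -1.27 ± 0.222 at 40 mg/kg (SD, n = 4), a difference of -0.69. The two-sided exact permutation test over the 70 arrangements gave p = 0.0286, the smallest it can give, and 0.143 after Benjamini-Hochberg adjustment over the 5 neighbouring pairs examined. This pair was of interest because F11 had been seen to fall, and F11 enters the ratio, so the difference is no separate evidence of that fall. The log2 ratio of F11 to F12 differed by -0.64 (exact permutation p = 0.0286, again the smallest possible and not adjusted). F11 enters this ratio too, so it is likewise no separate evidence of the fall. The other 4 pairs of adjacent genes differed by less: 0.05 for C1r to C1s, 0.09 for C8a to C8b, 0.04 for C2 to Cfb and -0.02 for F10 to F7. Whether counting used strand is not given in the sources used here, and reads shared between related genes could not be checked.

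**Figure D4:**
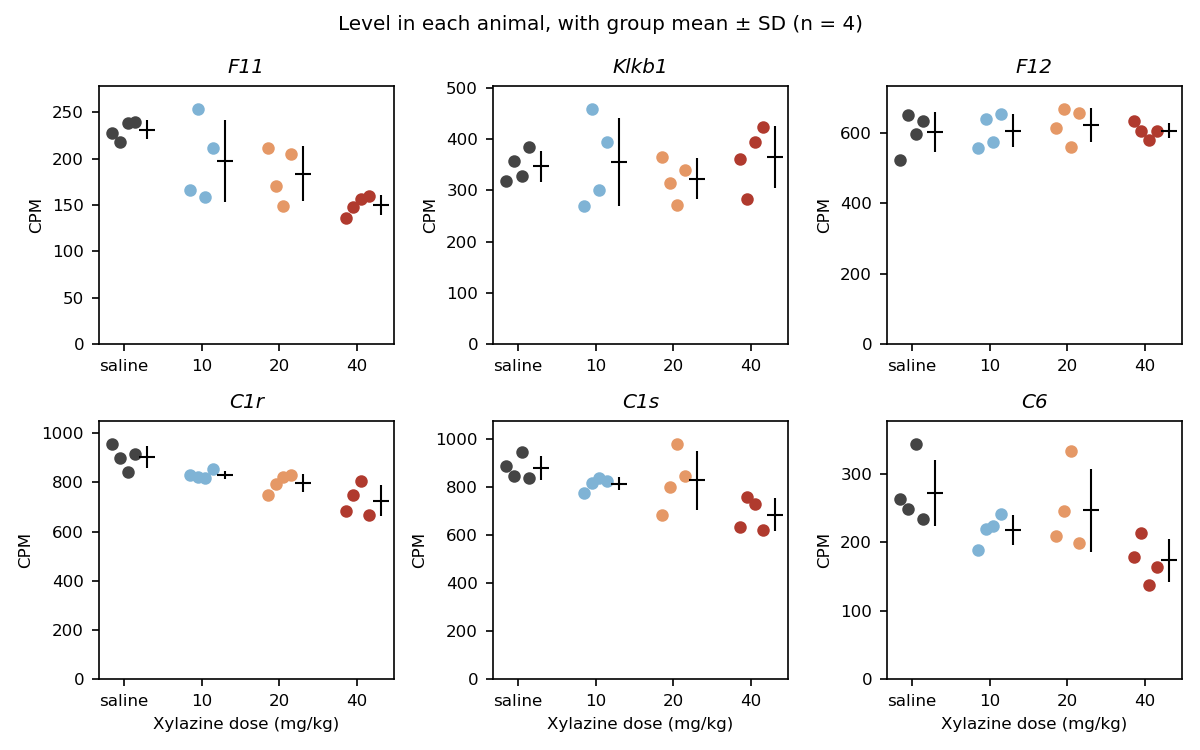
Level of 6 genes in each animal (CPM from 0, points) by dose, with group mean and SD (n = 4). F11 and C1r step down to their lowest mean at 40 mg/kg, Klkb1 and F12 overlap across doses, and 1 animal at 20 mg/kg is high for C1s and C6.

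None of the 6 vitamin K dependent factors passed in any comparison with edgeR. These proteases and cofactors need gamma-carboxylation to bind membranes. F9, the protease that factor XIa activates, came closest. Its level was 972, 1040, 943 and 1150 CPM with saline and 845, 922, 1040 and 1110 CPM at 10 mg/kg. The animals at 20 mg/kg had 970, 982, 763 and 965 CPM, and those at 40 mg/kg 824, 938, 854 and 797 CPM. All 4 animals at 40 mg/kg lay below the saline range, by little, with a log2 fold change of -0.27 (SE 0.108, edgeR adjusted p = 0.229). The others at 40 mg/kg were at -0.15 for Pros1 and -0.08 for Proc, the protein S and protein C of the anticoagulant arm, -0.09 for F2, -0.03 for F10 and -0.01 for F7.

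Of the clotting cofactor and crosslinking genes, F13b encodes the carrier subunit of the factor XIII that crosslinks fibrin. Its level was 340, 445, 372 and 410 CPM with saline and 355, 348, 346 and 439 CPM at 10 mg/kg. At 20 mg/kg it stood at 359, 369, 305 and 393 CPM, and at 40 mg/kg at 277, 342, 331 and 329 CPM. The 40 mg/kg animals overlapped saline only at saline replicate 1 (340 CPM). At 40 mg/kg its log2 fold change was -0.29 (SE 0.110, edgeR adjusted p = 0.194), while that of F5 was 0.01.

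The 4 protease inhibitors also did not pass in any comparison. Serping1 encodes C1 inhibitor, a serpin that restrains C1r, C1s, plasma kallikrein and factor XIIa. Its level was 586, 703, 660 and 699 CPM with saline and 622, 564, 671 and 869 CPM at 10 mg/kg. The animals at 20 mg/kg had 614, 596, 650 and 616 CPM, and those at 40 mg/kg 495, 711, 481 and 569 CPM. The highest 40 mg/kg animal exceeded every saline animal. The log2 fold change was -0.23 (SE 0.135, edgeR adjusted p = 0.417). Serpind1 (heparin cofactor II) was at -0.16, Serpinf2 (the plasmin inhibitor alpha-2-antiplasmin) at -0.11 and Serpinc1 at -0.08.

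In the fibrinolysis group Vtn, which stabilises the plasminogen activator inhibitor PAI-1, had 3700, 4120, 3670 and 4360 CPM with saline and 4700, 3890, 3800 and 4490 CPM at 10 mg/kg. At 20 mg/kg it stood at 4020, 4160, 3580 and 4240 CPM, and at 40 mg/kg at 3580, 3580, 3500 and 3790 CPM. All 4 animals at 40 mg/kg lay below the 10 mg/kg range and overlapped saline. The log2 fold change against saline was -0.13 (SE 0.096, edgeR adjusted p = 0.527). Plg was at -0.14 and Cpb2, the carboxypeptidase that slows fibrinolysis, at -0.19.

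Among the classical pathway proteases, C1r fell with dose and C1s, its substrate and partner in the C1 complex, had values of like size that did not pass. C1r was at 955, 900, 843 and 916 CPM with saline and 830, 821, 818 and 853 CPM at 10 mg/kg. It was at 749, 795, 820 and 831 CPM at 20 mg/kg, with 684, 748, 805 and 667 CPM at 40 mg/kg. Every animal at 20 and 40 mg/kg was below every saline animal, and 1 animal at 10 mg/kg (853 CPM) overlapped the lowest saline animal. The group means stepped down as 903 ± 46.8, 830 ± 15.7, 799 ± 36.3 and 726 ± 63.1 CPM (SD, n = 4). The trend was -0.30 (SE 0.0691, 95% interval -0.45 to -0.16, edgeR adjusted p = 0.0281), and the change at 40 mg/kg was -0.32 (SE 0.077, adjusted p = 0.061).

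The C1r trend was not past the threshold with total count scaling (-0.23, edgeR adjusted p = 0.0995) or TPM (-0.21, limma adjusted p = 0.12). It was also lost without saline replicate 1, 2 or 4 (edgeR adjusted p = 0.0541, 0.0555 and 0.0582) and without 40 mg/kg replicate 1 or 4 (0.0659 and 0.0875). At 40 mg/kg against saline C1r was instead gained with a stricter filter (edgeR adjusted p = 0.0467) and without saline replicate 3 (0.0487). It was also gained with DESeq2 (adjusted p = 0.000381), which called 523 of all genes there, where edgeR called 141.

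C1s (192262), named here after its values were seen, was at 887, 846, 946 and 838 CPM with saline and 773, 817, 835 and 824 CPM at 10 mg/kg. The animals at 20 mg/kg had 684, 799, 977 and 846 CPM, and those at 40 mg/kg 632, 756, 728 and 619 CPM. At 10 and 40 mg/kg the animals lay below the saline range, whereas 20 mg/kg replicate 3 was above it. The log2 fold change at 40 mg/kg was -0.36 (SE 0.102, edgeR adjusted p = 0.0872) and the trend -0.34 (SE 0.0967, adjusted p = 0.0593). Without 20 mg/kg replicate 3 the edgeR adjusted p of the trend was 0.0274, and with the replicate block it was 0.0486. With DESeq2 both the 40 mg/kg change and the trend of C1s passed (adjusted p = 0.0171 and 0.0114). C2, which C1s cleaves, was at -0.18 at 40 mg/kg (edgeR adjusted p = 0.418).

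None of the 4 lectin pathway genes passed with edgeR. Masp1, a protease carried by the mannose-binding lectins, had 244, 284, 224 and 323 CPM with saline and 259, 342, 297 and 345 CPM at 10 mg/kg. At 20 mg/kg it stood at 257, 227, 255 and 345 CPM, and at 40 mg/kg at 284, 284, 252 and 234 CPM. All groups overlapped. The log2 fold change at 40 mg/kg was -0.03 (SE 0.139, edgeR adjusted p = 0.952), and its sign turned with total count scaling (0.04) and TPM (0.07). Masp2, which cleaves C4 and C2, was at -0.03, and the lectins Mbl1 and Mbl2 at 0.12 and -0.15.

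Of the central components, Cfb (factor B, the protease subunit of the alternative convertase) was at 1590, 2010, 1850 and 2070 CPM with saline and 1880, 1770, 1610 and 2150 CPM at 10 mg/kg. The animals at 20 mg/kg had 1770, 1800, 1510 and 1760 CPM, and those at 40 mg/kg 1700, 1540, 1550 and 1670 CPM. Saline replicate 1 stood within the 40 mg/kg range and the other saline animals above it. The log2 fold change was -0.22 (SE 0.106, edgeR adjusted p = 0.318). C3 was at -0.17 and C5, the source of the pore-starting fragment, at 0.03.

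Of the regulators, C4bpa encodes the alpha chain of C4b-binding protein, a cofactor for C4b breakdown. Its level was 702, 772, 802 and 835 CPM with saline and 875, 759, 876 and 853 CPM at 10 mg/kg. At 20 mg/kg it stood at 889, 779, 951 and 841 CPM, and at 40 mg/kg at 953, 703, 784 and 769 CPM. The groups overlapped, with a log2 fold change at 40 mg/kg of 0.04 (SE 0.1, edgeR adjusted p = 0.879) that became -0.05 without 40 mg/kg replicate 1 and 0 without saline replicate 1. Cfi, the protease that inactivates C3b and C4b, was at -0.03.

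In the terminal group, C6, the pore subunit that binds C5b, had the lowest log2 fold change of all members without passing. Its level was 263, 248, 343 and 234 CPM with saline and 188, 220, 223 and 241 CPM at 10 mg/kg. It was 209, 245, 333 and 199 CPM at 20 mg/kg, with 178, 214, 137 and 164 CPM at 40 mg/kg. The 40 mg/kg animals all lay below the saline range, and 20 mg/kg replicate 3 stood with the highest saline animal. The change at 40 mg/kg was -0.65 (SE 0.169, 95% interval -1.01 to -0.29, edgeR adjusted p = 0.0724). The trend was -0.58 (SE 0.173, adjusted p = 0.0767). Without 20 mg/kg replicate 3 both passed, with an edgeR adjusted p of 0.0368 and 0.0248. With DESeq2 both passed too (adjusted p = 0.0112 and 0.0244). The pore subunits C8a, C8b, C8g and C9 were at -0.05, -0.14, -0.13 and 0.02.

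At the lower doses no member passed. At 10 mg/kg edgeR, DESeq2, limma-voom and limma on TPM called 0 of 35 (0% of all genes with edgeR), 0 had an unadjusted p under 0.05 (4% of genes, 1.9% lower), and 16 changes lay below 0 (50.1% of genes) with a median of 0.01. Every 10 mg/kg animal was below every saline animal in 1 member, C1s (1.12% of genes), and above in 0 (1.09%). At 20 mg/kg the same tools called 0 of 35 (0% of all genes with edgeR), F11 and C1r had an unadjusted p under 0.05 (9.13% of genes, 4.89% lower), and 19 changes lay below 0 (49.5% of genes) with a median of -0.02. Every 20 mg/kg animal was below every saline animal in F11 and C1r (2.26% of genes) and above in 0 members (2.29%). With total count scaling 19 and 16 changes lay below 0 at 10 and 20 mg/kg, and with TPM 21 and 13. The 95% interval lay within 1.5-fold for 34 of 35 members at each of these doses. All 3 dose comparisons share the saline animals.

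The 40 mg/kg and 10 mg/kg groups were also compared directly, within the models of all 16 libraries. With edgeR the saline animals thus still entered the filter, the scaling and the estimate of spread. The comparison reuses the 40 mg/kg animals, so it is not independent of the change at 40 mg/kg against saline. Here the same tools called 0 of 35 (0.361% of all genes with edgeR, 0.251% lower and 0.11% higher), and 4 members had an unadjusted p under 0.05, all lower (13.3% of genes in either direction, 6.92% lower). Of the changes 30 lay below 0 (49.9% of genes), with a median of -0.13. With total count scaling 23 did, and with TPM 24. In F13b, Vtn, C1r, C1s, C2 and C3 every 40 mg/kg animal was below every 10 mg/kg animal, as in 4.48% of all genes, and in 0 members was the order the reverse (3.53%). Over all genes the calls split into 14 higher and 32 lower, but 22 and 15 with total count scaling and 51 and 18 with TPM. In the test of any dose, edgeR called 0 of 35 (0.361% of all genes), and 4 had an unadjusted p under 0.05 (12.3% of genes). There DESeq2 called 3 of 35, but also 445 of the 12732 genes tested.

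The 3 fibrinogen genes, which encode the chains of the clot itself, did not pass in any comparison. At 40 mg/kg the log2 fold change was 0.04 for Fga, 0.11 for Fgb and 0.06 for Fgg (edgeR adjusted p = 0.923, 0.647 and 0.807). Of 16 further clotting genes tested, 1 passed the trend, where 2.91% of all genes did (1.28% higher): Serpina5, the protein C inhibitor, rose from 12.1 ± 1.54 CPM with saline to 14.3 ± 2.19, 16.9 ± 2.83 and 18 ± 3.03 CPM with dose (SD, n = 4). Its trend was 0.56 (SE 0.144, edgeR adjusted p = 0.0422). Of 26 further complement genes and 6 further fibrinolysis genes tested, 0 passed the trend, with 6 and 2 at an unadjusted p under 0.05, where 18.8% of all genes were.

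Of the 7 vitamin K cycle genes 0 passed the trend (2.91% of all genes), with 1 at an unadjusted p under 0.05 (18.8% of all genes). Vkorc1, which regenerates vitamin K, was at 0.12 and Ggcx, the gamma-carboxylase, at 0.09 at 40 mg/kg (edgeR adjusted p = 0.66 and 0.753). Of 22 genes listed as hepatocyte transcription factors 1 passed the trend, a share near that of all genes: Nr2f2, also called COUP-TFII. Its level rose from 28.7 ± 1.13 to 37.4 ± 4.89 CPM (SD, n = 4), a trend of 0.41 (SE 0.0973, edgeR adjusted p = 0.0337). Which cells of the liver carried the rise of Nr2f2 was not tested. Of the regulators known for these promoters, both named here did not pass at 40 mg/kg: Hnf4a was at -0.08 and Cebpa at -0.23 (adjusted p = 0.823 and 0.473). Alb, albumin, was at -0.02 (adjusted p = 0.954).

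Cell type markers measured beside the falls of F11 and C1r were as follows. Over all genes, 2.91% passed the trend (1.63% lower and 1.28% higher), and 49.6% had a slope below 0. Of the 12 hepatocyte markers, Cps1, the entry enzyme of the urea cycle, fell with dose (trend -0.43, edgeR adjusted p = 0.0451), and 9 of the 12 had a slope below 0, with a median of -0.19. Of 9 stellate cell markers tested, Pdgfrb, a growth factor receptor, rose (0.44, adjusted p = 0.0351), and 8 had a slope above 0. All 10 genes on the mesothelial list had a slope above 0, with a median of 1.04, and 0 passed. They include Krt8 (0.31) and Krt19 (0.1, also on the cholangiocyte list), which are not particular to mesothelial cells. Of 10 sinusoidal endothelium markers 8 had a slope above 0, with a median of 0.21 and 0 passing, and their summed level was 103 to 170 CPM with saline and 103 to 185 CPM at 40 mg/kg. All 6 erythroid markers tested had a slope above 0, with a median of 0.35 and 0 passing. The 8 on the list summed to 537 to 1740 CPM with saline and 377 to 1920 CPM at 40 mg/kg. Their mean sum did not rise step by step with dose. It was 879 ± 576 CPM with saline and 590 ± 139, 481 ± 262 and 1040 ± 765 CPM at 10, 20 and 40 mg/kg (SD, n = 4). Of the erythroid markers, Slc4a1, the red cell anion exchanger, came closest (trend 1.31, edgeR adjusted p = 0.0525). Of 7 cholangiocyte markers tested 5 had a slope above 0, as had both neutrophil and both platelet markers tested and 1 of 4 T and NK cell markers, and 0 passed. Kupffer cell markers split evenly, with a median of 0. The part of these markers in the changes of F11 and C1r was not tested.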

How the data were processed

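Liver RNA of 16 rats was sequenced, 4 per dose. The authors deposited, per the file headers, expected counts (estimated reads per gene, not normalized), FPKM, TPM and normalized read counts (a signal) for 17544 genes, with group averages. The tools RSEM, Bowtie2 and DESeq2 and the build mRatBN7.2 are named, per the submitters' processing notes. Versions, settings and strandedness are not given in the sources used here. The normalized read counts, FPKM and averages entered no test.

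Expected counts (16059922 to 16956867 per library) were rounded to whole numbers. Genes were filtered with edgeR 4.0.16 filterByExpr (minimum count 10, minimum total 15) under R 4.3.3, which left 12732 genes and all 35 members. CPM used TMM factors of 0.924 to 1.10. Quasi-likelihood models (robust, 16 libraries) gave 10, 20 and 40 mg/kg against saline, 40 against 10 mg/kg, any dose, and a linear trend over 0 to 40 mg/kg. Tests were two-sided, with Benjamini-Hochberg adjustment over all genes tested and a threshold of 0.05. The SE of a log2 fold change was obtained from it and its F statistic.

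As alternatives, results were recomputed with total count scaling, DESeq2 size factors, no filter, at least 5 CPM in 4 libraries, DESeq2 1.42.0, limma-voom and limma 3.58.1 on log2(TPM + 1), a replicate block, and leaving out each library. Promoters came from RefSeq (GRCr8), with 27457 windows, among them those of 26 of the 35 members. Neighbouring genes were found from RefSeq gene positions, where 17324 gene numbers matched. Members described in full are those that passed any comparison and, in each of the 10 role groups, that with the smallest unadjusted p for any dose. Of other lists, up to 4 passing members and a few preset genes were named, and a result the rule names is not reported here. Members and lists were chosen with earlier results of these data known.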

Additional observations from a re-analysis of the deposited data

Results flagged for a closer look

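In 4 of the 140 sets of 4 animals examined (35 genes in 4 groups, 2.86%) the highest or lowest animal was far from the others by Dixon's ratio, where chance flags about 1 in 20 groups. F9 in 20 mg/kg replicate 3 was 763 CPM, below the 965 to 982 CPM of the other animals. Cfb in the same liver was 1510 CPM, below 1760 to 1800 CPM. F13b in 10 mg/kg replicate 4 was 439 CPM, above 346 to 355 CPM. Serpinc1 in saline replicate 1 was 1790 CPM, below 2290 to 2380 CPM.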

How the results depend on the processing

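For the changes of the 11 genes described by animal, at 40 mg/kg and with dose (22 results), 528 alternative values were computed. Of these, 491 kept their direction and side of the threshold, 17 lost a call, 11 gained one and 9 changed sign. With DESeq2 the genes called were 1, 54, 523, 304, 445 and 752 for 10, 20 and 40 mg/kg against saline, 40 against 10 mg/kg, any dose and the trend, where edgeR called 0, 0, 141, 46, 46 and 371, and the members called were 4 at 40 mg/kg (F11, C1r, C1s and C6), 3 for any dose and 4 for the trend. Limma on TPM called 2 genes at 20 mg/kg and 1 member for the trend, total count scaling 1 member for the trend, and the stricter filter 2 members at 40 mg/kg. The replicate block gave 25 genes for any dose and 0 members at 40 mg/kg. Without each library in turn, genes called ranged over 0 to 1, 0 to 19, 27 to 198, 2 to 120, 6 to 89 and 127 to 405 in the same order, and members over 0 to 2 at 40 mg/kg and 1 to 4 for the trend, with 0 elsewhere. Masp1 at 40 mg/kg ranged from -0.11 to 0.07 without each library, and was 0.04 with total count scaling, 0.07 with TPM, 0.07 without saline replicate 4 and 0.02 without 40 mg/kg replicate 4, and its trend 0.01 with TPM. C4bpa at 40 mg/kg was 0 without saline replicate 1 and -0.05 without 40 mg/kg replicate 1, and its trend -0.02 and -0.05. The causes were not tested. Replicate numbers did not pair animals: deviations correlated above 0.1 in 4 of 24 same-number pairs, and 5 of 16 libraries correlated best with their own number. Precision is limited by 4 animals per group.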

Other observations

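The kininogen genes Kng1 and Kng2, whose family includes the plasma carrier of prekallikrein and factor XI, were looked at after their values were seen. Which rat gene encodes the carrier was not examined. Kng1 was 267 ± 42.5 CPM with saline, 541 ± 211 CPM at 10 mg/kg, 361 ± 23.9 CPM at 20 mg/kg, with 533 ± 303 CPM at 40 mg/kg (SD, n = 4). At all 3 doses every treated animal was above every saline animal, as in 1.09%, 2.29% and 4.45% of all genes at 10, 20 and 40 mg/kg. These 3 comparisons share the saline animals, and none passed. The log2 fold change was 1.02, 0.43 and 1.0 (edgeR adjusted p = 0.999, 0.728 and 0.139). Kng2 was 1090 ± 180, 1690 ± 501, 1260 ± 134 and 1700 ± 478 CPM in the same order, with 0.64 at 40 mg/kg (adjusted p = 0.146). The genes are close relatives, and how reads shared between them were assigned is not given in the sources used here.

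Colec10, a collectin that can start the lectin pathway, had a log2 fold change of 0.27, 0.43 and 0.60 at 10, 20 and 40 mg/kg (edgeR adjusted p = 0.999, 0.463 and 0.0843), and was also chosen after its values were seen.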
